A study of Mus musculus with 12 samples.

Results

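The genes described are 5 testis-specific serine kinase (TSSK) genes, Tssk1, Tssk2, Tssk3, Tssk4 and Tssk6, and Tsks, the gene of the TSSK substrate. They were taken by symbol through their NCBI Gene IDs, by a rule that uses no measured value, and they make up 6 of the 22221 rows of the expression table. Testis-specific serine kinases belong to the branch of protein kinases that also holds AMP-activated protein kinase. Their genes are switched on in male germ cells after meiosis, in the spermatids that reshape into sperm. TSSK1 and TSSK2 bind and phosphorylate TSKS, which has no kinase domain, and male mice that lack certain members of the family are infertile.

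RNA from testes of ICR mice, an outbred stock with no genotype named, was sequenced in 12 libraries that form 4 groups of 3. The Con group had no treatment, and the sample labels give no age for it. At 3 weeks of age, all mice of the other 3 groups were dosed once with busulfan, an alkylating agent toxic to dividing germ cells. The Sa group was then given saline. The IMC group was given gut microbiota from donors on ddH2O, and the IMA10 group gut microbiota from donors on an oligosaccharide, spelled Aligina in the labels, at 10 mg/kg body weight. The transplants lasted 2 weeks, and another 3 weeks passed before the testes were taken. The series text calls the testis cultured without describing any culture, and no label tells whether replicates of a group are separate mice. P-values therefore measure the spread between these libraries, which may be technical. In the table header the Con columns read T5WCon, which may hold an age or time and is not explained. The 3 busulfan groups have another prefix. Any batch behind that prefix, any difference in age and the lack of treatment therefore cannot be told apart.

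Levels are given in FPKM, fragments scaled to transcript length and to the mapped total of the library, as the authors deposited them, and the read depth behind them is unknown. The sum of FPKM was 569055 to 576093 in the Con libraries and 476127 to 519355 in the busulfan libraries. IMA10 replicate 3 stood apart from its group. Its median correlation across genes was 0.952 with the Con libraries and 0.799 with the 2 others of IMA10. Differences of the 6 genes that involve IMA10 are given with and without it. This library was singled out from these same data. Differences are on the scale of log2(FPKM + 1), tested with limma across the 15472 genes that had at least 1 FPKM in at least 3 libraries. A gene is said to rise or fall where the adjusted p was under 0.05. All 6 TSSK and TSKS genes passed this filter on low values. The fit shares 1 spread per gene over all 12 libraries, so IMA10 replicate 3 enters the SE and p of every comparison. For single genes in Sa or IMC against Con these are mostly given with it. Without it all 6 genes still fell in Sa, and 30.0% of all genes fell, against 19.2% with it.

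The sequences of Tssk1 and Tssk2 are shown first because these genes are neighbours and the most alike of the kinase genes in coding sequence. This bears on how some reads can be told apart. They lie in tandem on the same strand of chromosome 16, with 714 bases between them in the GENCODE M21 annotation of GRCm38. The genome build the authors used is not given in the sources used here. Their coding sequences, 1095 and 1074 bases long, were identical at 80.9% of aligned bases, against 59.8 to 67.1% for the other 9 pairs of kinase genes. The longest coding run that both share without a mismatch is 113 bases, coding bases 371 to 483 of each, at chr16:17894723-17894835 in Tssk1 and chr16:17899105-17899217 in Tssk2 (GRCm38, + strand). Capitals mark identical bases, here the whole run:
Tssk1 and Tssk2, shared coding run: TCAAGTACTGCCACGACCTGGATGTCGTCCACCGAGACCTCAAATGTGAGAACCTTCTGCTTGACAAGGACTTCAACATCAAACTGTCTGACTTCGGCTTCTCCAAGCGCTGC
Of all 50-base words of the Tssk2 transcripts, 9.34% also occur in Tssk1, and 3.42% of those of Tssk1 occur in Tssk2. Reads that lie wholly in the shared run cannot be given to either gene by sequence, and how the authors counted them is not given in the sources used here.

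The pair also shared sequence upstream. Among the 15 pairs of RefSeq promoter windows (250 bases before the start, GRCm38.p6), the longest local alignment was the one between Tssk1 and Tssk2, with 49 aligned bases against at most 27 for the others. It covers positions -53 to -2 of Tssk1, chr16:17894150-17894201, and positions -63 to -15 of Tssk2, chr16:17898574-17898622, both on the + strand. Capitals mark the 41 of 49 aligned bases that are identical:
Tssk1: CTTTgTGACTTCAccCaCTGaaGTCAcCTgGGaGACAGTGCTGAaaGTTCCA
Tssk2: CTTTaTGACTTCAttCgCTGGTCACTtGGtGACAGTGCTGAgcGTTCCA

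Both strands of the windows were searched for 5 motifs. No member held TGACGTCA, the cyclic AMP response element, which 1.55% of all 32851 windows hold. Its core TGACG, which overlaps it, was found in Tssk6 alone (17.8% of all windows). The TATA box, searched as TATAAA, was in no member (12.4%). The CCAAT box was in Tssk3 and Tssk4 (33.8%). The GC box, searched as GGGCGG, was in Tssk6 (32.7%). A match describes letters and not a bound site. On GENCODE models the Tssk3 window lies wholly in a Tssk3 exon, the Tssk6 window wholly in an Ndufa13 exon, and the end of the Tsks window in Tsks exons. The matches in Tssk3 and Tssk6 are thus to exonic sequence. The windows of Tssk1 and Tssk2 hold parts of Dgcr2 exons, outside the block shown.

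In the untreated testis all 6 genes were highly expressed. By mean FPKM in Con, Tssk2 ranked 189th and Tssk4, the lowest of them, 968th among the 22221 rows. The order by level was Tssk2, Tsks, Tssk6, Tssk1, Tssk3 and Tssk4 in each of the 3 Con libraries. Neighbours in this order did not overlap across those libraries, except Tsks (290.2 to 340 FPKM) and Tssk6 (255 to 293 FPKM). FPKM depends on the transcript length the authors used, which is not given. For Tssk1 the GENCODE transcript is 3700 bases long, against 1273 to 1843 bases for the other 5, so its place among the levels may depend on that length, which was not tested.

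The comparison of Sa with Con shows what differed after busulfan and saline. All 6 genes fell, each with no overlap between the groups, by 2.95 to 5.01 on the log2 scale. Of all genes tested, 19.2% fell and 31.3% were lower without overlap. Over all genes 8052 rose and 2963 fell, against 5831 and 6060 with median-of-ratios scaling and 5699 and 4514 with quantile normalization, and the 6 genes fell under each. The median difference of the 6 was -4.17, beside 0.60 for all genes. In bulk tissue, fewer cells of a type and less RNA per cell cannot be told apart.

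Tssk2 (Gene ID 22115) encodes one of the kinases that phosphorylate TSKS. Its level was 425, 391 and 416 FPKM in Con replicates 1 to 3, and 35.5, 25.7 and 11.3 in Sa. It was 13.1, 13.3 and 6.31 in IMC, and 1.67, 3.68 and 80.9 in IMA10. Every busulfan library lay below every Con library, IMA10 replicates 1 and 2 lay below all others, and IMA10 replicate 3 lay above the rest of the busulfan libraries. The mean was 410.4 ± 17.8 FPKM in Con (SD, n = 3) and 24.2 ± 12.2 in Sa, a difference of -4.17 ± 1.03 (SE, limma adjusted p = 0.00455).

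Tssk1 (Gene ID 22114), its tandem neighbour, was at 254, 246 and 246 FPKM in Con, 36.2, 22.8 and 14.6 in Sa, 20.7, 21.2 and 11.2 in IMC, and 2.67, 6.34 and 101 in IMA10. Here too the busulfan libraries all lay below Con, with IMA10 replicate 3 nearest to it. The mean fell from 248.8 ± 4.55 FPKM to 24.5 ± 10.9 in Sa, a log2 difference of -3.38 ± 0.97 (adjusted p = 0.0100).

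Tsks (Gene ID 22116), the substrate, was at 340, 290.2 and 337 FPKM in Con, 29.1, 19.1 and 8.55 in Sa, 10.5, 8.54 and 5.44 in IMC, and 1.23, 3.22 and 62.3 in IMA10. Its libraries stood in nearly the same places as those of Tssk2, with Sa replicate 1 the highest of Sa and IMA10 replicate 1 the lowest of all. The mean was 322.5 ± 28.0 FPKM in Con and 18.9 ± 10.3 in Sa (log2 difference -4.17 ± 1.00, adjusted p = 0.00381).

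Tssk6 (Gene ID 83984), also called small serine/threonine kinase, is needed for sperm head chromatin to condense. Its level was 293, 269 and 255 FPKM in Con, and 17.7, 8.78 and 2.36 in Sa. It was 1.38, 1.66 and 1.33 in IMC, and 0.96, 0.85 and 21.8 in IMA10. It had the largest fall of the 6 in each comparison with Con, and it was at or above 1 FPKM in 7 of the 9 busulfan libraries. From Con (272.5 ± 19.5 FPKM) to Sa (9.60 ± 7.68) the log2 difference was -5.01 ± 0.89 (adjusted p = 0.000697). On GENCODE models 28.1% of the exonic bases of Tssk6 (375 of 1335) overlap Ndufa13 on the opposite strand. Ndufa13, named as a neighbour after its values were seen, stayed between 107 and 148 FPKM in all 12 libraries. Without strand the reads of such a stretch cannot be told apart, and whether the authors' counting used strand is not given in the sources used here.

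Tssk3 (Gene ID 58864), a spermatid kinase, was at 213, 209 and 199.8 FPKM in Con, 15.1, 8.13 and 4.38 in Sa, 5.72, 5.42 and 3.37 in IMC, and 0.59, 3.10 and 29.5 in IMA10. The value of IMA10 replicate 1 was the lowest of any of the 6 genes in any library. The mean was 207.4 ± 6.87 FPKM in Con and 9.20 ± 5.43 in Sa (log2 difference -4.49 ± 0.86, adjusted p = 0.00105).

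Tssk4 (Gene ID 71099), a kinase of the sperm tail protein ODF2, was at 125, 124 and 112 FPKM in Con, 23.1, 12 and 11.3 in Sa, 14.8, 13.4 and 7.48 in IMC, and 1.75, 4.66 and 67.8 in IMA10. It fell least of the 6. The mean was 120.5 ± 6.99 FPKM in Con and 15.5 ± 6.61 in Sa (log2 difference -2.95 ± 0.93, adjusted p = 0.016).

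**Figure D1:**
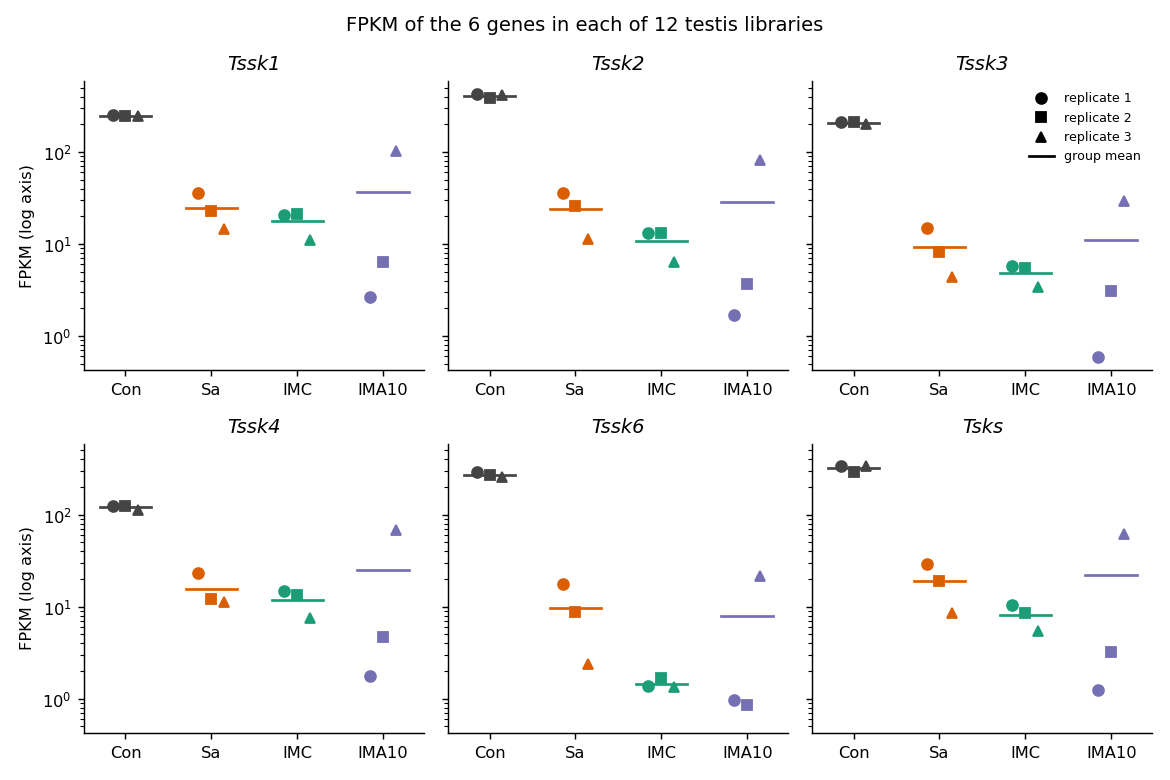
FPKM (log axis) of each gene in the 3 libraries of Con, Sa, IMC and IMA10; symbols mark replicates and bars the group means. In all 6 genes the Con libraries lie above every busulfan library, and IMA10 replicate 3 lies far above IMA10 replicates 1 and 2.

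Both microbiota groups also lay below Con. All 6 genes fell in IMC, where 23.3% of all genes fell, and in IMA10, where 23.9% fell, and no library of either group reached a Con library in any of the 6. Of all genes, 33.2% were lower without overlap in IMC and 18.1% in IMA10. These comparisons share the Con libraries with that of Sa, so they are not independent of it. The differences of IMC from Con were -3.79 for Tssk1, -5.18 for Tssk2, -5.18 for Tssk3, -3.28 for Tssk4, -6.80 for Tssk6 and -5.18 for Tsks (adjusted p from 0.000308 to 0.00921). In IMA10 they ran from -3.57 for Tssk4 to -5.97 for Tssk6 (adjusted p from 0.000916 to 0.00691). Without IMA10 replicate 3 the IMA10 differences ran from -4.94 for Tssk4 to -7.16 for Tssk6, and 35.0% of all genes fell.

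**Figure D2:**
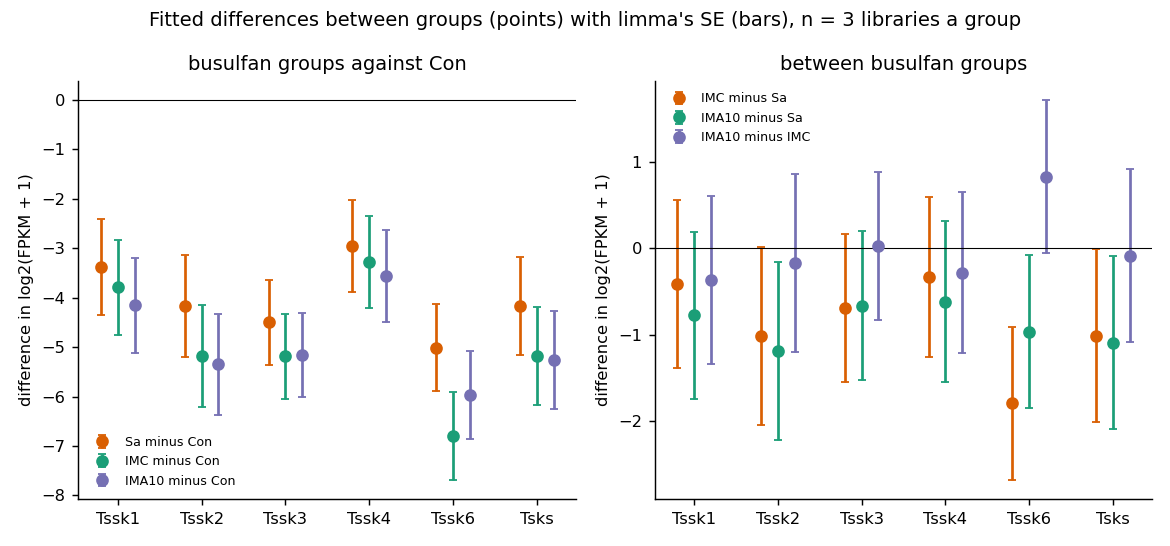
Fitted difference in log2(FPKM + 1) for each gene (points) with limma's SE (bars), for each busulfan group against Con (left) and between busulfan groups (right), with 3 libraries a group. Against Con all 18 points lie at -2.95 or lower, and between busulfan groups they lie from -1.79 to 0.83.

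By the labels the busulfan groups differ from each other in what followed the drug, and these comparisons address the transplant. No label tells whether the groups are otherwise alike. None of the 6 genes passed the limma test between IMC and Sa, IMA10 and Sa, or IMA10 and IMC, and none had an unadjusted p under 0.05. Of all genes tested, 0.0% passed in each of the 3 comparisons, and 134, 928 and 328 (0.866, 6 and 2.12%) had an unadjusted p under 0.05. The lack of a call is thus shared with nearly all genes and is not particular to the 6. The SE of IMC minus Sa also holds the spread of IMA10, a group outside that comparison. The fitted difference of IMC from Sa was below 0 for all 6 genes, with a median of -0.85, while 61.2% of all genes were below 0 and their median was -0.06.

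Tssk6 was the only one of the 6 with no overlap between IMC and Sa. Its 3 IMC libraries (1.33 to 1.66 FPKM) all lay below the lowest Sa library (2.36 FPKM), a difference of -1.79 ± 0.89 with an unadjusted p = 0.0703 and an adjusted p = 1. Of all genes tested, 6.02% were lower in IMC without overlap. For the other 5 genes the differences of IMC from Sa were -0.33 to -1.01, and the groups overlapped.

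The comparisons with IMA10 turned on 1 library. With all libraries the difference of IMA10 from Sa was between -0.62 (Tssk4) and -1.18 (Tssk2), and the adjusted p was 0.981 for each gene. All 6 were below 0, as were 80.9% of all genes. IMA10 replicates 1 and 2 lay below all Sa and all IMC libraries in each of the 6 genes, and IMA10 replicate 3 lay above all of them. Of all genes, 38.0% had these 2 libraries below all of Sa, and 23.7% below all of IMC. Without replicate 3, all 6 genes fell from Sa to IMA10. The differences were then -2.21 ± 0.40 for Tssk1, -2.70 ± 0.45 for Tssk2, -1.86 ± 0.46 for Tssk3, -1.99 ± 0.38 for Tssk4, -2.16 ± 0.53 for Tssk6 and -2.55 ± 0.45 for Tsks (limma adjusted p from 0.0136 to 0.0181). In the same fit 24.7% of all genes fell, and IMA10 was left with 2 libraries. Replicate 3 was singled out from these same data and lay highest of IMA10 in each of the 6 genes. Leaving it out lowers the group, so these p-values are no independent support for a fall. Against IMC without replicate 3, none of the 6 passed: the differences ran from -0.37 (Tssk6) to -1.80 (Tssk1) with adjusted p from 0.0731 to 0.711, and 0.013% of all genes fell.

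The members did not keep their proportions. As a share of the Con mean, Tssk4 kept the most and Tssk1 the second most in each of the 9 busulfan libraries. Tssk6 kept the least in 8 of them, and Tssk3 in IMA10 replicate 1. Tssk4 was at 19.2, 9.96 and 9.40% of its Con mean in Sa replicates 1 to 3, at 12.3, 11.1 and 6.21% in IMC, and at 1.45, 3.87 and 56.3% in IMA10. Tssk6 was at 6.48, 3.22 and 0.866% in Sa, at 0.506, 0.609 and 0.488% in IMC, and at 0.352, 0.312 and 8.0% in IMA10. Tssk2 and Tsks lay between them and close together, at 2.76 to 8.66% and 2.65 to 9.01% in Sa, and at 19.7 and 19.3% in IMA10 replicate 3.

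**Figure D3:**
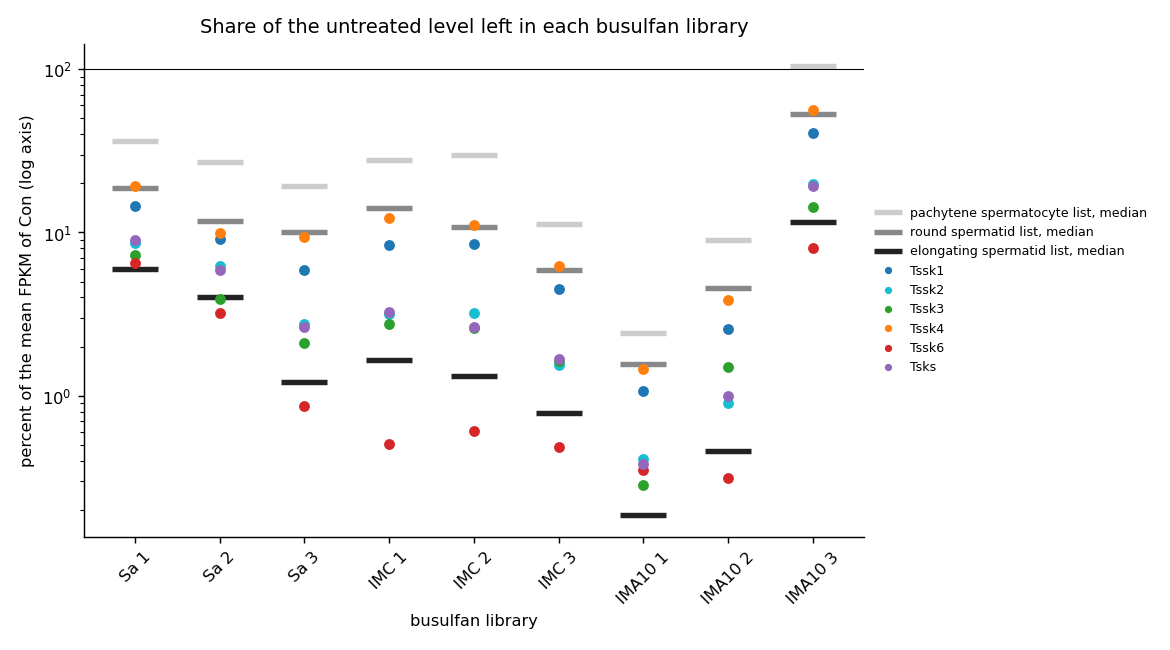
Percent of the mean FPKM of Con (log axis) left in each of the 9 busulfan libraries, for the 6 genes (points) and as the median of 3 marker lists (bars). Tssk4 (orange) lies highest of the 6 genes in every library, near the round spermatid median, and Tssk6 (red) lies lowest in 8 of 9.

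Among the 15 pairs of members, the ratio of Tssk4 to Tssk6 moved the most from Con to Sa. Its divisor Tssk6 was low in IMC (1.38, 1.66 and 1.33 FPKM) and in IMA10 replicates 1 and 2 (0.96 and 0.85 FPKM). At unknown depth, and with the overlap of Tssk6 with Ndufa13, the size of the ratio in these libraries is uncertain. It was 0.425, 0.461 and 0.441 in Con, 1.31, 1.37 and 4.80 in Sa, 10.7, 8.08 and 5.62 in IMC, and 1.82, 5.48 and 3.11 in IMA10. On the scale of log2(FPKM + 1) the ratio was 2.05 higher in Sa than in Con. The tandem neighbours exchanged places: the ratio of Tssk1 to Tssk2 was 0.598, 0.631 and 0.591 in Con and above 1 in 8 of the 9 busulfan libraries, with 0.886 in Sa replicate 2. In IMC it was 1.59, 1.60 and 1.77. A higher share of Tssk1 thus stood in each busulfan library, IMA10 replicate 3 included (1.25). Tssk2 and its substrate gene Tsks kept theirs: their ratio was 1.23 to 1.35 in Con, 1.22 to 1.34 in Sa, 1.16 to 1.55 in IMC and 1.14 to 1.36 in IMA10.

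Of the 15 pairs of members, 14 had no overlap in ratio between Sa and Con, and Tssk2 with Tsks was the exception (log2 difference 0.00). The 15 pairs come from 6 genes and are not independent, and pairs of other genes were not examined. In Sa 52.0% of all genes rose and 19.2% fell, so whether such shifts are particular to the members was not tested. An exact two-sided permutation test of 3 against 3 cannot go below p = 0.1, and these 14 pairs were at that limit (0.107 after Benjamini-Hochberg adjustment over 15 pairs). With all 9 busulfan libraries against the 3 Con libraries, a comparison chosen after the values were seen, 10 pairs had no overlap and 12 had an adjusted exact p under 0.05. Those that did not were Tssk2 with Tsks (0.740), Tssk3 with Tsks (0.740) and Tssk2 with Tssk3 (0.791). A p of this size does not show that these 3 genes act alike. The smallest p the exact permutation test of 9 against 3 can give is 0.0091. Any pair without overlap reaches that limit, so for the 10 pairs the test only restates the lack of overlap. The 9 libraries also pool 3 groups that were treated differently. Of the 12, Tssk2 with Tssk6 and Tssk6 with Tsks overlapped with Con in some busulfan library. In Sa alone, Tssk3 also had no overlap with Con in its ratio to Tssk2 or to Tsks.

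**Figure D4:**
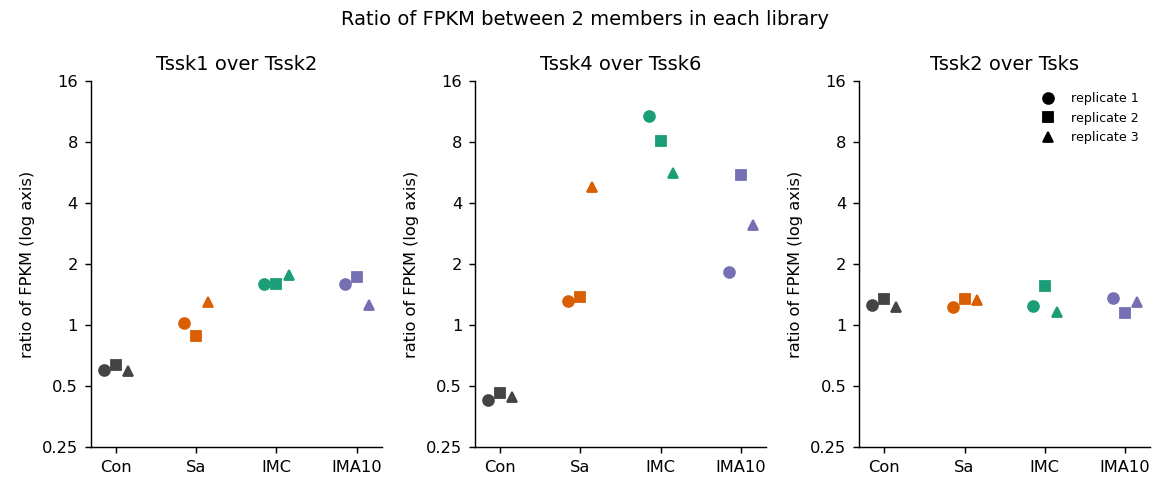
Ratio of FPKM (log axis) of Tssk1 to Tssk2, Tssk4 to Tssk6 and Tssk2 to Tsks in each of the 12 libraries, by group, with symbols for replicates. The first and second ratios lie higher in every busulfan library than in Con (0.591 to 0.631 and 0.425 to 0.461), and the third lies between 1.14 and 1.55 in all 12. In IMC the second ratio divides by Tssk6 levels of 1.33 to 1.66 FPKM.

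Markers of spermatid stages moved along with the members. Elongating spermatid markers all fell in Sa (14 of 14, median -5.05), where 19.2% of all genes fell. Among them were the protamine genes Prm1, from 10640 to 293 FPKM, and Prm2, from 12870 to 348 FPKM. Of the round spermatid markers 11 of 15 fell (median -2.81), and without IMA10 replicate 3 all 15 did, in a fit in which 30.0% of all genes fell. Gsg1 fell from 1754 to 79.3 FPKM and Actl7b from 537 to 88.2 FPKM. Pachytene spermatocyte markers passed the test in 2 of 10 (median -1.89), near the 19.2% of all genes. Without IMA10 replicate 3 they passed in 9 of 10, beside 30.0% of all genes. The round spermatid list held a median of 18.7, 11.8 and 10.1% of its Con level in Sa, 14.1, 10.8 and 5.88% in IMC, and 1.56, 4.56 and 53.1% in IMA10. The elongating list held 6.0, 4.0 and 1.21% in Sa, 1.66, 1.33 and 0.781% in IMC, and 0.187, 0.456 and 11.6% in IMA10. The summed level of the elongating list was 45280 to 47790 FPKM in Con and 314 to 2463 FPKM in Sa. None of its genes was at 0 in any library, and 1 round spermatid gene was at 0 in IMA10 replicate 1.

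Set against these lists, Tssk4 and Tssk6 differed. Relative to the mean log2(FPKM + 1) of the round spermatid list, Tssk4 stayed between -0.47 and -0.08 in all 12 libraries. Tssk6 lay 0.92 to 1.12 above that mean in Con, but -2.02 to -0.50 from it in Sa and -3.02 to -1.94 in IMC. Relative to the elongating list the picture was the other way round. Tssk6 lay at -2.71 to -2.51 in Con, -2.94 to -2.47 in Sa, -3.34 to -2.39 in IMC and -3.16 to -1.15 in IMA10, so its groups overlapped. Tssk4 moved there from -3.89 to -3.68 in Con to between -0.61 and -0.44 in IMC. Tssk1 was lower against the round list in all busulfan libraries (0.02 to 0.50) than in Con (0.83 to 0.92), and the other 3 genes lay below their Con range as well.

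**Figure D5:**
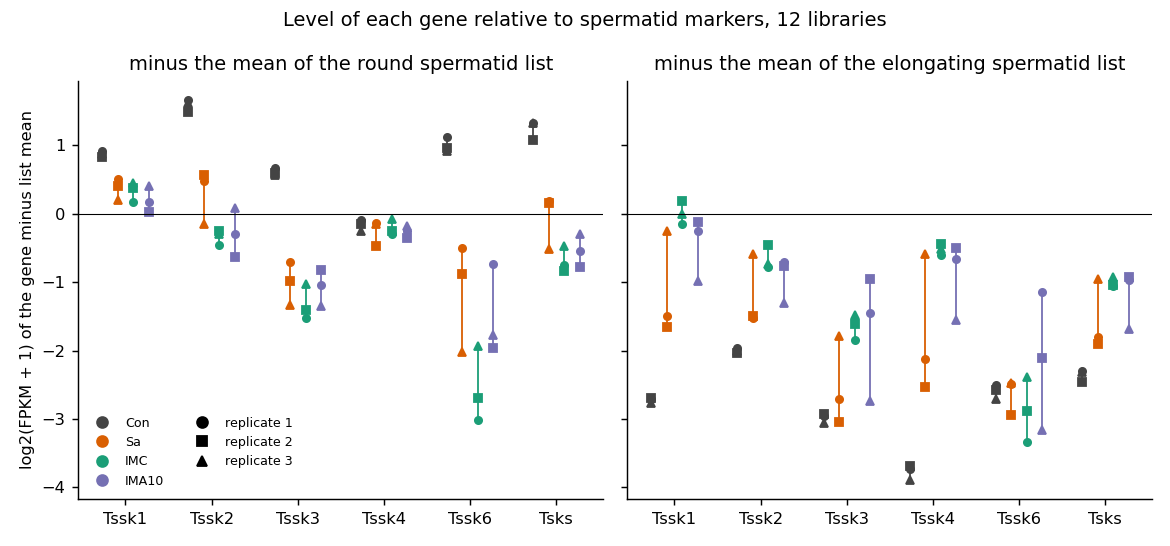
log2(FPKM + 1) of each gene minus the mean of the round (left) or elongating (right) spermatid list in each of the 12 libraries, by group; lines span the 3 libraries of a group. Tssk4 is level against the round list (-0.47 to -0.08) and Tssk6 overlaps between groups against the elongating list.

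Markers of somatic cells and of spermatogonia moved the other way. In Sa, where 52.0% of all genes rose, all 10 Sertoli cell markers rose, as did 7 of 7 Leydig cell, 7 of 7 macrophage, 5 of 5 peritubular myoid, 4 of 4 endothelial and 9 of 10 spermatogonia markers. Of the spermatogonia markers 6 rose and 1 fell with median-of-ratios scaling, and 7 rose and 1 fell with quantile normalization. Of all 15472 genes, 5831 rose with the former and 5699 with the latter. Summed FPKM of the Sertoli list was 418 to 499 in Con, 7268 to 8991 in Sa, 9223 to 10950 in IMC, and 13910, 10800 and 2345 in IMA10. The Leydig list summed to 604 to 648 FPKM in Con and 4296 to 8737 in Sa. Of 5 markers of neighbouring tissue or blood found in the table, a list that holds the globin gene Hba-a1, 3 rose and Adipoq fell, from 12.1 to 1.17 FPKM. IMA10 replicate 3 had the lowest Sertoli sum of the busulfan libraries and the highest level of each of the 6 TSSK and TSKS genes. The part of these shifts in the members' differences was not tested.

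Genes that act with the kinases were taken from a list of 11. In Sa 4 rose and 5 fell, with a median of -1.01, against 52.0% and 19.2% of all genes. Without IMA10 replicate 3, 7 fell and 4 rose, in a fit in which 30.0% of all genes fell. In IMC 3 rose and 5 fell, as in IMA10, while 50.8% and 47.7% of all genes rose there.

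Among them, Tssk5, a further kinase of the family, fell from 9.04 ± 0.53 to 1.19 ± 0.41 FPKM (SD, n = 3), a log2 difference of -2.21 (limma adjusted p = 0.00366). Tsacc, the co-chaperone that links TSSK6 to HSP90, fell from 389 ± 5.36 to 62.1 ± 22.5 FPKM (-2.69, adjusted p = 0.0285). Odf2, the sperm tail protein that TSSK4 phosphorylates, fell from 2070 ± 55.6 to 251 ± 80.1 FPKM (-3.09, adjusted p = 0.00794). These 3 genes went the same way as the kinases. Pdpk1, which encodes a kinase that activates many others, fell from 70.6 to 13.0 FPKM (-2.37, adjusted p = 0.000351). Spag16, an axoneme protein gene and TSSK2 substrate, was at 66.5 FPKM in Con and 15.7 in Sa and did not pass (-2.05, adjusted p = 0.0772). Its Sa libraries (11.2 to 19.6 FPKM) all lay below Con (66.1 to 67.1 FPKM), as in 31.3% of all genes. Without IMA10 replicate 3 it fell.

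The chaperones split. Hspa8 rose from 67.9 ± 7.23 to 443 ± 17.2 FPKM (2.69, adjusted p = 0.000336) and Hsp90ab1 from 138.8 ± 4.99 to 593 ± 19.96 FPKM (2.09, adjusted p = 0.00035). Hsp90aa1, the other cytosolic HSP90 gene, was at 448.5 ± 74.8 and 226 ± 59.1 FPKM and did not pass (-1.01, adjusted p = 0.163). Its Sa libraries (158 to 268 FPKM) all lay below Con (365 to 509 FPKM), and without IMA10 replicate 3 it fell. Both risers are widely expressed genes of protein folding, and both were at their lowest among busulfan libraries in IMA10 replicate 3 (171 FPKM for Hspa8 and 287 FPKM for Hsp90ab1).

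The phosphatase gene Ppp1cc, whose testis form is found with TSKS, fell from 634 ± 19.9 to 323 ± 36.2 FPKM (-0.98, adjusted p = 0.0283). With quantile normalization it kept its sign but did not pass (adjusted p = 0.140). Creb1, a transcription factor that TSSK4 can phosphorylate, rose from 1.36 to 4.63 FPKM (1.25, adjusted p = 0.00204), which did not pass with quantile normalization (adjusted p = 0.0766). H2afx, the histone variant gene linked to TSSK6, rose from 35.8 to 69.6 FPKM (0.90, adjusted p = 0.00795). With median-of-ratios scaling, which moves the median of all genes from 0.60 to -0.02, its difference was 0.11 (adjusted p = 0.699).

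Of 16 other kinase genes of germ cells, 3 rose and 6 fell in Sa, with a median of -0.92, against 52.0% and 19.2% of all genes. Without IMA10 replicate 3, 12 fell, beside 30.0% of all genes, and with median-of-ratios scaling 1 rose and 11 fell. With that scaling 5831 of all 15472 genes rose and 6060 fell. Tesk1 fell from 453 to 107 FPKM (-2.10 ± 0.68, adjusted p = 0.0177), and Camk4, a calmodulin-dependent kinase of spermatids, fell from 29.98 to 3.37 FPKM (-2.91 ± 0.62, adjusted p = 0.00202). Stk33 was at 176 FPKM in Con and 42.8 in Sa and did not pass (-2.05, adjusted p = 0.110), though its Sa libraries (30.6 to 53.3 FPKM) all lay below Con (167 to 182 FPKM). Vrk1, a chromatin kinase of proliferating cells, rose from 6.32 to 18.7 FPKM (1.44, adjusted p = 0.000395).

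Genes of the kinases related to AMP-activated protein kinase, the branch that holds the TSSK family, moved near the background. Of the 16 tested, 9 rose and 3 fell in Sa, against 52.0% and 19.2% of all genes, and their median (0.70) lay 0.10 above that of all genes. With median-of-ratios scaling 3 rose and 7 fell, while 5831 and 6060 of the 15472 genes did. Mark4 rose from 9.84 to 108.7 FPKM (3.35, adjusted p = 0.000364) and Nuak2 from 1.43 to 15.8 FPKM (2.78, adjusted p = 0.000576), and both also passed with the other scalings. Mark2 was 0.69 higher (22.8 to 37.4 FPKM, adjusted p = 0.00108), which turned to -0.09 with median-of-ratios scaling. Stk11, the gene of the upstream kinase LKB1, was at 76.1 FPKM in Con and 79.1 in Sa (0.05, adjusted p = 0.679), which turned to -0.74 with that scaling (adjusted p = 0.00153).

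Genes most like each member were sought among 8326 genes with a mean of at least 5 FPKM in Con, by Pearson's r of log2(FPKM + 1) over the 12 libraries. All libraries share the split between Con and busulfan, so high values are common: 828 (Tssk6) to 2292 (Tssk4) genes had r above 0.95. The closest were Dusp13 to Tssk1 (0.9993), 1700003F12Rik to Tssk2 (0.9994), Apoh to Tssk3 (0.9974), Slc22a14 to Tssk4 (0.9993), Oxct2a to Tssk6 (0.998) and 2610318N02Rik to Tsks (0.9996). Smcp, a gene of the sperm mitochondrial sheath and one of the elongating markers, was second for Tssk2 (0.9992). Oxct2a and Oxct2b, which came first and second for Tssk6, are near-identical copies whose reads are hard to tell apart.

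Over the 9 busulfan libraries alone Tssk6 stood apart in this measure. Only 3 genes had r above 0.99 with it, led by Glt6d1 (0.9918), and 148 had r above 0.95. For the other 5 members, 20 (Tssk3) to 228 (Tssk1) genes had r above 0.99. Among the members themselves, r over these 9 libraries was highest for Tssk2 with Tsks (0.997) and Tssk1 with Tssk4 (0.994), and lowest for Tssk4 with Tssk6 (0.798). In 5 of the 9 busulfan libraries Tssk6 lay between 0.85 and 1.66 FPKM.

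A neighbour of Tssk3 had a like course. Fam229a, which lies 167 bases from Tssk3 on the opposite strand in GENCODE and was chosen after its values were seen, was at 174 to 192 FPKM in Con, 13.0 to 25.4 in Sa and 10.4 to 16.9 in IMC. In IMA10 it was at 3.19, 5.79 and 72.7 FPKM. All 9 busulfan libraries thus lay below its Con range. Such a course is common, as 1435 of 8326 genes had r above 0.95 with Tssk3 over the 12 libraries. The levels of other neighbours of Tssk3 were not compared. Dgcr2, which shares 63 exonic bases with Tssk1 on the opposite strand and was named after its values were seen, was at 30.3 to 32.6 FPKM in Con and 33.0 to 36.0 in Sa. Over all 12 libraries it stayed between 23.9 and 36.0 FPKM, while Tssk1 ranged from 2.67 to 254 FPKM.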

How the data were processed

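The table holds FPKM for 12 libraries, which the authors deposited with 1 column per library. The unit is FPKM per the file headers, and the values do not contradict it. Not given in the sources used here are the aligner, counter, genome build, annotation and filters. Depth is unknown, so no counting interval can be given. Groups and replicate numbers come from the labels. Symbols were attached through Gene IDs in a RefSeq table (GRCm38.p6), which matched 20141 of 20288 numeric IDs.

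Values were analysed as log2(FPKM + 1), which understates the change of low genes. The 15472 genes that reached 1 FPKM in 3 or more libraries were fitted in limma 3.58.1 (R 4.3.3), with 1 mean per group over all 12 libraries, a variance trend and Benjamini-Hochberg adjustment over all genes. The script was tested on simulated data. Ratios between members were compared by exact permutation (scipy 1.17.1). Promoter sequences come from RefSeq (GRCm38.p6), and all 6 genes matched. Coding sequences come from GENCODE M21 on GRCm38, and alignments were made with Biopython 1.88.

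The 14 gene lists (139 entries, 137 found), of which the 6 TSSK and TSKS genes are 1, were chosen with earlier results of these data known. The text names all members and all TSSK-associated genes. Of each other list it may name the 2 genes highest in Con and the 2 with the smallest p in Sa minus Con, and it names the genes most like each member. Any other gene is marked as named with its values known. Alternatives were median-of-ratios scaling, quantile normalization, a pseudocount of 0.1, no filter, a filter of 5 FPKM, a fit limited to the pair of groups compared, a block for the replicate number, and leaving out each library.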

Additional observations from a re-analysis of the deposited data

How the results depend on the processing

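All 6 TSSK and TSKS genes stayed lower than in Con and past the threshold in each of the 3 comparisons under every alternative run, 342 of 342 fold changes. In Sa minus Con the fold changes ranged from -5.76 (Tssk6) to -2.78 (Tssk4), and the highest adjusted p was 0.0494 (Tssk4). The median of all genes, 0.60 in that comparison, moved to -0.02 with median-of-ratios scaling and to 0.19 with quantile normalization. Relative to it the median of the 6 genes was -4.77, -4.93 with median-of-ratios scaling and -4.20 with quantile normalization. In the list of 16 germ cell kinases the count that fell was 11 with median-of-ratios scaling, and among 10 pachytene markers it was 8. With that scaling 6060 of all 15472 genes fell, against 2963 in the main fit.

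The difference of IMC from Sa stayed below 0 for all 6 genes under every alternative, from -2.46 (Tssk6) to -0.02 (Tssk4). That of IMA10 from Sa also did for Tssk2 (highest -0.23), Tssk6 (-0.35) and Tsks (-0.13). For Tssk1, Tssk3 and Tssk4 against Sa, and for all 6 genes against IMC, the direction depended on single libraries of IMA10. The count of the 6 genes changed in IMA10 minus Sa was 0 to 6 with libraries left out in turn, 6 without IMA10 replicate 3. That difference ranged with libraries left out from -2.21 to 0.19 for Tssk1, -1.86 to 0.28 for Tssk3 and -1.99 to 0.33 for Tssk4, with the highest value without IMA10 replicate 1. For IMA10 minus IMC it ranged from -1.80 to 0.60 for Tssk1, -1.68 to 0.79 for Tssk2, -1.17 to 0.96 for Tssk3, -1.66 to 0.66 for Tssk4, -0.37 to 1.45 for Tssk6 and -1.54 to 0.87 for Tsks. The sign of IMA10 minus IMC also turned with quantile normalization for Tssk2 (0.07) and Tsks (0.19), with median-of-ratios scaling for Tsks (0.07) and with a pseudocount of 0.1 for Tssk3 (-0.26). The cause was not tested.

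The groups share replicate numbers, but same-numbered libraries did not deviate together more often than others. Of same-numbered pairs, 5 of 18 had r above 0.1 (-0.77 to 0.55), against 11 of 36 other pairs (-0.68 to 0.76). The deviations are from group means of 3 libraries, so these r values are not independent. The numbers are taken as names. With the replicate block, 6 of the 6 genes changed in each comparison with Con and 0 in each of the others, and 7820 genes rose and 2481 fell in Sa minus Con. The count of TSSK-associated genes changed was 7 to 11 in Sa minus Con over the alternatives. The count of 14 pairs without overlap stayed at 14 with a pseudocount of 0.1 and with each Sa or Con library left out, all chosen after the values were seen. Values near or under 1 FPKM, as for Tssk6 in IMC and IMA10, are limited by unknown depth.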
